A study of Macaca fascicularis with 6 samples.

Results

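A set of 9 genes of the mast cell and of the receptors for immunoglobulin E (IgE) were followed in the single-cell RNA sequencing of lungs from 6 cynomolgus monkeys (Macaca fascicularis). The 9 genes were taken by symbol from the 28623 genes of the deposited count tables, and each symbol matched 1 gene. They were FCER1A, MS4A2 and FCER1G, which encode the alpha, beta and gamma chains of the high-affinity IgE receptor, FCER2, which encodes the low-affinity IgE receptor CD23, KIT and KITLG, which encode the stem cell factor receptor and its ligand, and CPA3, TPSD1 and HDC, which encode 2 granule proteases and the histamine-forming enzyme. All monkeys were male and 3 to 5 years old, and each gave 1 library of dissociated lung. The study's methods name no sort by marker, but red cells were lysed and dead cells were taken out with magnetic beads before capture. The 3 asthma monkeys (numbered 8, 10 and 11 in the labels) were sensitized with Ascaris suum antigen and then challenged with it through the nose, and the 3 control monkeys (numbered 1, 2 and 3) were given saline. The model is therefore an experimental allergic one, and the asthma lungs were taken after challenge.

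IgE bound to the high-affinity receptor arms mast cells and basophils, and antigen that crosslinks it sets off the release of histamine and proteases. In these cells the receptor is built of an alpha chain that binds IgE, a beta chain that amplifies the signal and a pair of gamma chains that carry it inward. The gamma chain is also the signalling partner of activating IgG receptors, so it is made by most myeloid cells and NK cells. Human dendritic cells and monocytes can carry a form of the receptor without the beta chain. Tissue mast cells depend on stem cell factor, which stromal, epithelial and endothelial cells make.

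The droplet assay tags RNA molecules with identifiers (UMIs) that let copies be collapsed, and levels are given as UMIs per 1000000 UMIs of the same library or cell class (CPM). A molecule is counted once from its 3' end, so that these values do not scale with transcript length. The control libraries 1, 2 and 3 held 40556102, 33210436 and 32240293 UMIs, and the asthma libraries 8, 10 and 11 held 41184329, 41489879 and 29014556. After limits on genes, UMIs and mitochondrial share, 24235 of 35133 barcodes were kept, namely 4339, 3200 and 3902 cells of the controls and 4136, 4620 and 4038 of the asthma monkeys. Of the barcode sequences, 137 occurred in more than 1 library, and 150 kept cells carried a sequence that was also a kept cell elsewhere. Classes of cells were rebuilt by clustering with the 9 genes left out and were named with markers that did not include them, so the names end in "-like". Values for classes describe the cells that were clustered and carry no test of a class against the others.

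Mast-like cells were found as 1 cluster of 2 sub-clusters, led by the granule amine transporter gene SLC18A2, the leukotriene C4 synthase gene LTC4S, GATA2 and RGS13. After 13 cells with fewer than 3 of the naming markers were set aside, 90 mast-like cells remained, and they held a median of 10 naming markers. Of the 18 naming markers in the gene list, 17 had a UMI in these cells, and CTSG, the cathepsin G gene, had none. The 13 cells set aside held no UMI of FCER1A, MS4A2, KIT, CPA3, TPSD1 or HDC, and 7 of them came from asthma monkey 11. CD3D was found in 7 of those 13 cells.

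Most members were found in nearly every mast-like cell. CPA3 and MS4A2 were detected in all 90 mast-like cells, FCER1A in 89, FCER1G in 88, TPSD1 in 87, KIT in 80 and HDC in 65. Of the 90 cells, 59 carried all 6 of FCER1A, MS4A2, KIT, CPA3, TPSD1 and HDC, 26 carried 5 of them, and the remaining cells carried 3 or 4. No mast-like cell held a UMI of FCER2 or KITLG, which allows up to 3.33% of such cells to hold a UMI of either gene (3 of 90 cells, counting error only). This limits cells with a UMI and not cells that express the gene, since HDC, at 383 CPM, was itself missed in some mast-like cells.

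**Figure D1:**
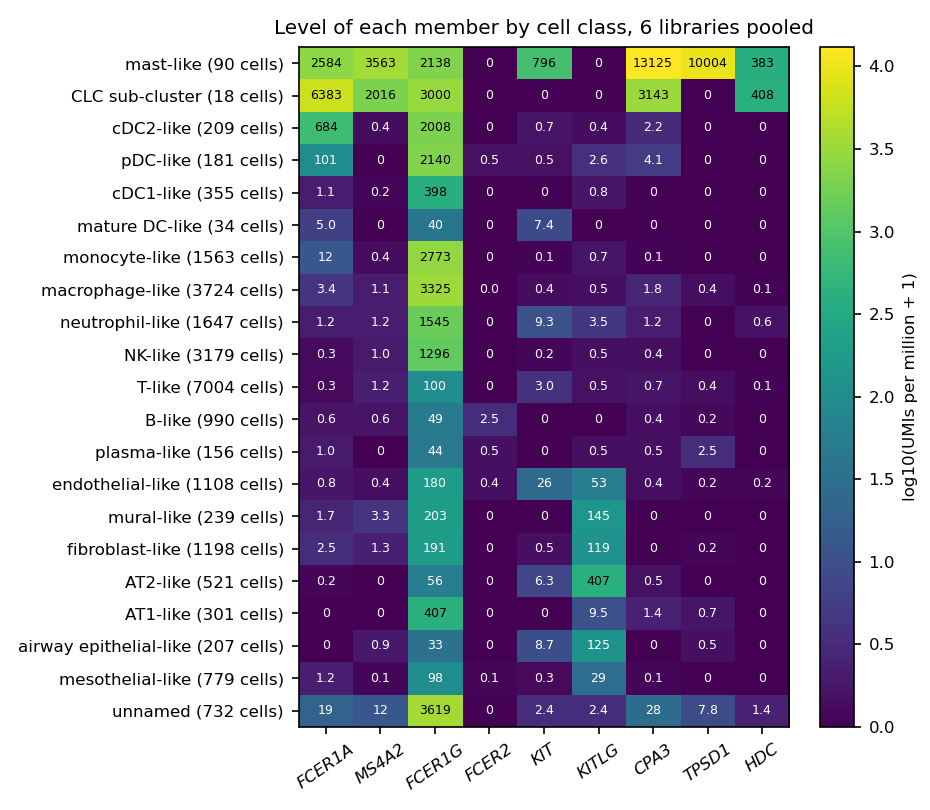
Level of the 9 members in each cell class, with the UMIs of the 6 libraries pooled. Each cell of the heat map prints the level in CPM, and the colour shows log10 of the level plus 1. CPA3 and TPSD1 stood at 13124.6 and 10004.0 in the mast-like cells, FCER1G spread over the myeloid and NK-like classes, and KITLG was highest in AT2-like cells at 407.

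Carboxypeptidase A3, a zinc protease stored in granules, had the highest level of the list in mast-like cells, with the 6 libraries pooled. CPA3 reached 13124.6 CPM in mast-like cells, and only 3 of the 10579 genes with a UMI there stood above it. TPSD1, the delta tryptase gene, followed at 10004.0 CPM and rank 9, and in control 3 it stood above CPA3 (12438.4 against 10694.0 CPM). MS4A2 stood at 3562.8 CPM, FCER1A at 2584.2 and FCER1G at 2138.1, so the 3 chains of the IgE receptor lay within 1 order of magnitude. KIT stood at 796 CPM and HDC at 383, the lowest of the 7 members found in the pooled libraries. By library, KIT lay below HDC in controls 1 and 3 (327 against 545 CPM and 379 against 683 CPM).

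The alpha, beta and delta tryptase genes are close copies of each other, and of the tryptase genes the gene list names only TPSD1 and TPSG1, the more distant gamma tryptase gene. Reads of alpha or beta tryptase may be counted at TPSD1 or elsewhere, so its level is uncertain. TPSG1 had 21 UMIs, all in mast-like cells, but it is one of the naming markers that chose these cells. A gene without a symbol, ENSMFAG00000043035, had 15176.1 CPM in mast-like cells and 97.1% of its UMIs there, and a second, ENSMFAG00000043936, had 619 CPM and 98.5%. Both were singled out after their values were seen, and the count tables do not pair them with a name.

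Pooled over the 6 libraries, of which asthma monkey 8 gave 56 of the 90 mast-like cells, the share of each member's UMIs that came from mast-like cells separated the list into a mast cell part and a shared part. TPSD1 had 98.3% of its UMIs there, CPA3 93.8%, MS4A2 86.5% and HDC 84.3%. KIT had 55.3% and FCER1A 32%. FCER1G had 0.346% there. By library the share ran from 95.1% to 100% for TPSD1, from 82.5% to 97.8% for CPA3, from 69.2% to 86.3% for HDC and from 44.7% to 91% for MS4A2. For KIT it was 8.11%, 30.2% and 10.4% in controls 1, 2 and 3 and 77.4%, 60% and 18.8% in asthma monkeys 8, 10 and 11, so that the pooled shares of KIT and FCER1A rest largely on asthma monkeys 8 and 10. Without asthma monkey 8 they were 36.8% and 16.7%.

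MS4A2, CPA3, TPSD1 and HDC also resembled each other across the 98 sums of class and library with at least 10 cells. On log2(CPM + 10), the Pearson correlation of MS4A2 was 0.993 with HDC, 0.991 with TPSD1 and 0.981 with CPA3, and HDC and GCSAML, one of the naming markers, reached 0.987. KIT was most like ST8SIA6, a sialyltransferase gene (0.929), SLC18A2 (0.873) and HDC (0.868). These are descriptions over sums that share libraries, and only 2 of the 98 sums are of mast-like cells.

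A separate sub-cluster of 18 cells carried the receptor chains without KIT or TPSD1. It was led by CLC, the Charcot-Leyden crystal protein gene, with GATA2, GCSAML, HGF and IL4, and by the naming score its best class was mast, with 8 naming markers passing and a score of 2.18, ahead of basophil with 1.9. It was set apart and left unnamed after its values were seen, since CLC led it, and of 5 basophil markers in the gene list CLC itself was the only one with a UMI in it. FCER1A was found in all 18 of these cells at 6382.9 CPM, a higher level than in mast-like cells (95% Poisson intervals 5638.8 to 7197.8 and 2447.8 to 2726.1 CPM, counting error only). CPA3 was found in all 18 as well, at 3143.4 CPM, below the 13124.6 CPM of mast-like cells. MS4A2 stood at 2015.6 CPM, FCER1G at 2999.5 and HDC at 408.

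KIT and TPSD1 had no UMI in the 18 cells, which allows up to 72 CPM of each (3 UMIs over the sub-cluster) against 796 CPM of KIT and 10004.0 CPM of TPSD1 in mast-like cells. CLC itself stood at 12525.8 CPM there and at 23.1 CPM in mast-like cells, where 3 of 90 cells had it. The 18 cells fell as 0, 1 and 6 in controls 1, 2 and 3 and as 9, 0 and 2 in asthma monkeys 8, 10 and 11, so the groups overlapped. Their median of 2017.0 UMIs was below the 4500.0 of mast-like cells. By the scores of Scrublet, a doublet caller, 9 of the 18 were marked, beside 3 of the 90 mast-like cells and 781 of the 24127 other cells. Once the marked cells were removed, the sub-cluster was no longer found as such. Whether the 18 are single cells was not tested further.

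**Figure D2:**
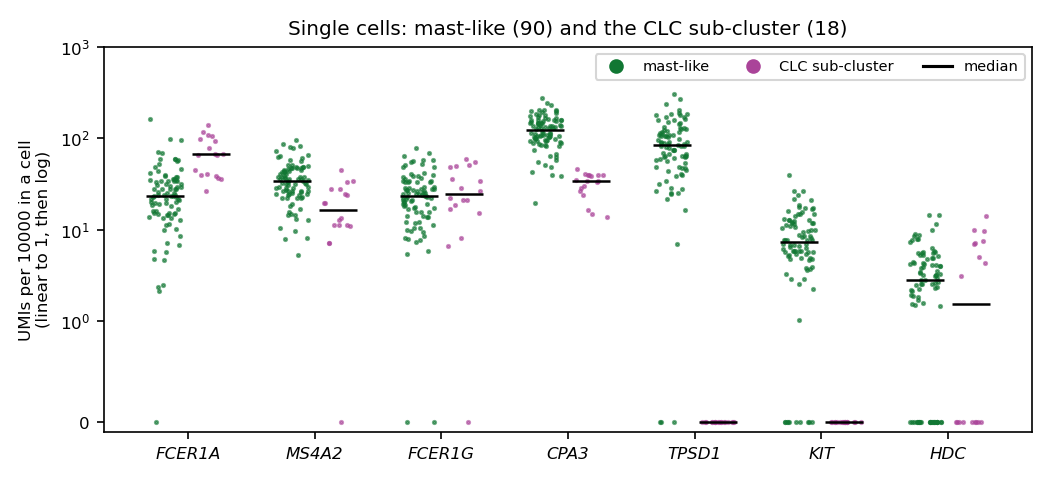
UMIs of 7 members per 10000 UMIs of a cell, in the 90 mast-like cells (green) and the 18 cells of the CLC-led sub-cluster (purple), with each point a cell and each black line a median; the axis is linear up to 1 and logarithmic above. TPSD1 and KIT lay at 0 in all 18 cells of the sub-cluster, while FCER1A was higher there than in most mast-like cells.

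Whether the allergen model changed the number of mast-like cells was asked per monkey. The controls 1, 2 and 3 had 2, 7 and 3 mast-like cells, or 0.0461%, 0.219% and 0.0769% of kept cells. The asthma monkeys 8, 10 and 11 had 56, 20 and 2, or 1.35%, 0.433% and 0.0495%. Asthma monkeys 8 and 10 lay above every control, and asthma monkey 11 lay inside the control range. With cells marked as doublets removed and the rest clustered again, asthma monkey 11 had 0 mast-like cells, below every control, and the difference had p = 0.4 by the exact permutation test. All values given for its mast-like cells rest on the 2 cells that were not found under that setting. The exact Clopper-Pearson 95% interval was 1.02% to 1.75% for asthma monkey 8 and 0.265% to 0.668% for asthma monkey 10, against 0.088% to 0.45% for control 2, the highest control, so that the last 2 intervals overlapped.

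The mean share was 0.612% ± 0.67 in asthma and 0.114% ± 0.0921 in control monkeys (SD, n = 3 each), a difference of 0.498 percentage points with p = 0.3 by a two-sided exact permutation test, whose smallest possible p with 3 against 3 is 0.1. The difference was 0.127 without asthma monkey 8 and 0.78 without asthma monkey 11. With the 13 cells that held fewer than 3 naming markers counted in, the cells numbered 4, 7 and 5 in controls and 56, 22 and 9 in asthma monkeys, and p was 0.1, since asthma monkey 11 then had 0.223% and control 2 had 0.219%.

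**Figure D3:**
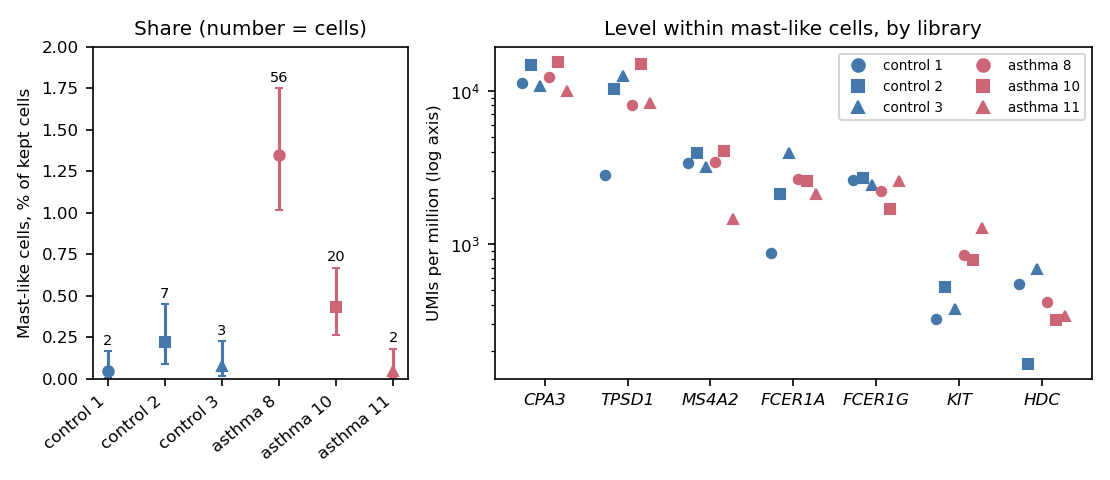
Left, mast-like cells as a percentage of the kept cells of each library, with exact 95% intervals and the number of cells above each point. Right, level of 7 members within the mast-like cells of each library, in CPM on a log axis; controls are blue and asthma monkeys red. The share spread from 0.0461% to 1.35%, while the CPA3 level spread from 9982.1 to 15328.7.

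The sums of CPA3 over whole libraries were highest in the libraries with the most mast-like cells. In such sums, more cells of a type and more RNA per cell cannot be told apart. CPA3 had 3.3, 22.2 and 6.23 CPM in controls 1, 2 and 3 and 133, 71.1 and 5.4 CPM in asthma monkeys 8, 10 and 11. TPSD1 had 0.753, 15.3 and 5.97 CPM in the controls and 83.9, 64.6 and 4.02 in the asthma monkeys. MS4A2 had 1.1, 6.91 and 2.59 against 38.9, 20.1 and 1.5. In each of these 3 genes, asthma monkeys 8 and 10 were above all controls and asthma monkey 11 was not, so the groups overlapped.

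HDC was also highest in asthma monkeys 8 and 10, with 0.203, 0.285 and 0.474 CPM in the controls and 5.07, 1.58 and 0.197 in the asthma monkeys, the last the lowest of all 6. KIT had 1.07, 2.56 and 1.75 CPM in the controls and 11.3, 5.56 and 3.15 in the asthma monkeys, and it was the only member of the 8 tested whose groups did not overlap. Of the 14306 genes tested, 15.9% likewise had all asthma libraries above all controls. With the mast-like cells taken out, KIT still had 0.985, 1.79 and 1.57 CPM in the controls and 2.58, 2.24 and 2.56 in the asthma monkeys. Endothelial-like cells, the class with the next largest share of KIT UMIs, numbered 48, 38 and 110 in the controls and 278, 261 and 373 in the asthma monkeys, and their part in the KIT sums was not tested.

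FCER1A, FCER1G and KITLG differed less between the groups. FCER1A had 18.2, 14.4 and 31.2 CPM in the controls and 36.7, 18.1 and 26.3 in the asthma monkeys. FCER1G had 1916.0, 1962.2 and 1506.3 against 1823.7, 1783.2 and 2094.6. KITLG had 25.3, 10.7 and 12.7 against 19.6, 24.4 and 44.5. All 3 overlapped between the groups.

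**Figure D4:**
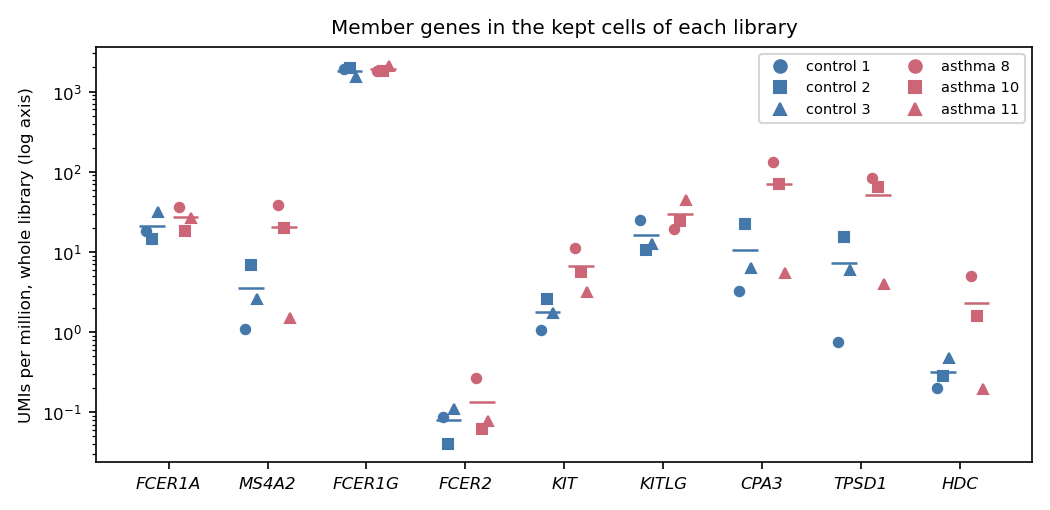
Level of each member over all kept cells of a library, in CPM on a log axis. Each point is a library (controls blue, asthma monkeys red) and each line is a group mean. Asthma monkeys 8 and 10 lay above the controls for CPA3, TPSD1, MS4A2, KIT and HDC, while asthma monkey 11 lay above them for KIT alone of these 5 genes.

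In the edgeR quasi-likelihood test on these sums, 0 of the 8 members tested passed the threshold (Benjamini-Hochberg adjusted p under 0.05 and absolute log2 fold change over 0.25), beside 0.0839% of all genes tested. The log2 fold change of CPA3 was 2.58 (SE 1.15, edgeR adjusted p = 0.415) and that of TPSD1 2.67 (SE 1.25, edgeR adjusted p = 0.433). For KIT it was 1.75 (SE 0.53, edgeR adjusted p = 0.277), and for HDC 2.69 (SE 1.03, edgeR adjusted p = 0.351), and these 2 were the members with an unadjusted p under 0.05. DESeq2 called KIT (log2 fold change 1.75, DESeq2 adjusted p = 0.0358) and no other member, where it called 4.52% of all genes. Without control 2, CPA3 was 3.76, TPSD1 3.88 and MS4A2 3.36, the highest values with 1 library left out, and without asthma monkey 8, CPA3 was 1.77, MS4A2 1.54, HDC 1.41 and KIT 1.18. MS4A2 had 2.38 (SE 1.11), KITLG 0.69 (SE 0.44), FCER1A 0.21 (SE 0.31) and FCER1G -0.08 (SE 0.18). KITLG was 1.23 without control 1 and 0.29 without asthma monkey 11. FCER2 had too few UMIs to be tested.

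Within mast-like cells the asthma values of KIT lay above the control values, while the groups overlapped for the other 6 members found, and none of the 7 passed the test. No control library held 10 mast-like cells, so that libraries with at least 3 were used, control 2 and 3 and asthma 8 and 10. KIT had 327, 524 and 379 CPM in the mast-like cells of controls 1, 2 and 3 and 845, 787 and 1279.8 in those of asthma monkeys 8, 10 and 11. The 3 asthma values were above the 3 control values, as for 5.84% of the genes tested in mast-like cells, but the control values rest on 3, 19 and 5 UMIs and that of asthma monkey 11 on 15. The log2 fold change of KIT was 0.82 (SE 0.36, edgeR adjusted p = 0.907), and it ran from 0.7 without control 3 to 1.62 without control 2.

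CPA3 had 11229.8, 14713.6 and 10694.0 CPM in the controls and 12248.4, 15328.7 and 9982.1 in the asthma monkeys, with a log2 fold change of 0.14 (SE 0.44). TPSD1 had 2834.7, 10296.8 and 12438.4 against 8024.8, 14826.0 and 8275.7, with 0.06 (SE 0.46). MS4A2 had 3379.9, 3919.9 and 3185.4 against 3420.5, 4021.6 and 1450.4, with 0.09 (SE 0.34). The groups overlapped for all 3 genes, and the lone low values, TPSD1 in control 1 and MS4A2 in asthma monkey 11, each rest on 2 cells.

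FCER1A had 872, 2125.6 and 3943.9 CPM in the controls and 2649.3, 2579.1 and 2132.9 in the asthma monkeys (log2 fold change -0.13, SE 0.36). The highest of these values, that of control 3, rests on 52 UMIs in 3 cells. Of these UMIs, 21 came from 1 cell of 1281 UMIs, which held 7 UMIs of CPA3. It had no UMI of KIT or TPSD1, like the cells of the CLC-led sub-cluster, and what it is was not tested. FCER1G had 2616.7, 2677.7 and 2427.0 against 2227.0, 1697.5 and 2559.5 (-0.35, SE 0.33). HDC had 545, 166 and 683 against 419, 321 and 341 (0.16, SE 0.59). None of the 7 members tested was called by edgeR, DESeq2 called none either, none had an unadjusted p under 0.05, and the share of genes called in this fit was 0% of 1148. The 2 control libraries held 10 mast-like cells together, and the SEs of the 7 members ran from 0.33 to 0.59 on the log2 scale.

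Markers of other cell types were low in the mast-like cells. The monocyte list summed to 463 CPM there against 14789.3 CPM in monocyte-like cells, with LYZ the most abundant at 365 CPM, and the endothelial list to 267 CPM with ESAM at 163. Asthma monkey 11 stood apart, with 2474.2 CPM of the AT2 list and 1023.8 of the fibroblast list in its 2 cells, or 29 and 12 UMIs. The part of such RNA in the member values was not tested.

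The IgE-binding alpha chain was also a gene of dendritic cells in this lung. Pooled over the 6 libraries, FCER1A had 44.1% of its UMIs in 209 cDC2-like cells (conventional dendritic cells of type 2) and 32% in mast-like cells. By library, cDC2-like cells held 66.6%, 53.8% and 59.7% of them in controls 1, 2 and 3 and 8.67%, 22.2% and 75.9% in asthma monkeys 8, 10 and 11, while mast-like cells held 1.27%, 21.8% and 6.07% and then 74.8%, 60.5% and 3.75%. The order of the 2 classes was thus turned in asthma monkeys 8 and 10, the libraries with the most mast-like cells. Its level in cDC2-like cells was 794, 500 and 875 CPM in controls 1, 2 and 3 and 225, 417 and 1058.7 in asthma monkeys 8, 10 and 11, or 645 ± 315 over all 6 (SD). The asthma values enclosed the control values on both sides. In pDC-like (plasmacytoid dendritic) cells FCER1A reached 80.3 ± 71.2 CPM, with 177, 30.8 and 118 against 0, 132 and 24.9. Of its 196 UMIs in this class, 189 lay in a sub-cluster of 119 cells at 129 CPM whose pDC marker score was 1.26, with cDC2 the second class, while the sub-cluster of 62 cells with a pDC score of 3.58 stood at 14.9 CPM. It was 14.8 ± 13 CPM in monocyte-like and 4.15 ± 3.75 in macrophage-like cells, and the SDs of these last 3 classes were nearly as large as their means. Within macrophage-like cells, 164 of its 232 UMIs lay in 1 sub-cluster of 353 cells, at 39.4 CPM, whose marker scores were 2.69 for macrophage and 2.08 for cDC2. Within monocyte-like cells, 77 of 155 UMIs lay in a sub-cluster of 161 cells, at 65.3 CPM, and control 1 gave 130 of those cells.

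FCER1A was detected in 72.2% of cDC2-like cells (median 12600.0 UMIs) and in 0.0999% of T-like cells (median 3612.0 UMIs), which should lack it. Thinned to 2000 UMIs per cell, the shares were 52.5% and 0.0544%. No change of FCER1A between groups was called in the 4 classes where it was tested, in which 0% (cDC2-like), 0.0356% (pDC-like), 0% (monocyte-like) and 0% (macrophage-like) of genes were called. The log2 fold changes were -0.37 (SE 0.43) in cDC2-like, -1.28 (SE 0.80) in pDC-like, -1.20 (SE 0.77) in monocyte-like and 0.51 (SE 0.81) in macrophage-like cells, with edgeR adjusted p of 0.976, 0.837, 0.941 and 0.951. Leaving out 1 library moved the first 3 between -1.23 (without asthma monkey 11) and 0 (without asthma monkey 8), between -3.13 (without asthma monkey 10) and -0.66 (without asthma monkey 8), and between -2.05 (without asthma monkey 10) and -0.24 (without control 1).

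The genes most like FCER1A over the 98 sums were CLEC10A (0.677), a C-type lectin of cDC2 cells, CD300C (0.646) and CD1E (0.638), a lipid antigen presentation gene. CLEC10A and CD1E had no UMI in mast-like cells.

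The combination of chains differed between the classes. All 3 chains were found together in 112 cells, of which 88 were mast-like and 16 belonged to the CLC-led sub-cluster. FCER1A with FCER1G but without MS4A2 was found in 150 of 209 cDC2-like cells, where 1 cell had all 3 chains, and in 43 of 181 pDC-like cells, where none had. FCER1A was found in 31.1% of the pDC-like sub-cluster with the lower pDC score and in 9.68% of the other, and FCER1G in all cells of both. The pair without MS4A2 was also found in 70 macrophage-like and 22 monocyte-like cells, where FCER1A was detected in 73 of 3724 and 23 of 1563 cells (0.615% and 0.879% when thinned to 2000 UMIs), beside the 0.0544% of thinned T-like cells. Among mast-like cells, 0 of 90 had FCER1A and FCER1G without MS4A2. A chain without a UMI in a cell may still be present in it, but cDC2-like cells were deeper than mast-like cells and had 1 cell with MS4A2 among 209.

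FCER1G was the most widely found member, at its highest levels in myeloid, mast-like and NK-like cells. Macrophage-like cells held 71.5% of its UMIs, at 2815.8, 3800.4 and 3731.9 CPM in the controls and 3855.8, 3028.6 and 3485.3 in the asthma monkeys. The mean level fell from 3453.0 ± 435 CPM in macrophage-like through 2902.9 ± 384 in monocyte-like, 2055.0 ± 228 in pDC-like, 1967.9 ± 314 in cDC2-like, 1512.1 ± 300 in neutrophil-like and 1285.9 ± 174 in NK-like cells (SD, n = 6 libraries). Neighbours in this order differed by less than the sum of their SDs, except monocyte-like and pDC-like cells, whose values did not overlap over the 6 libraries. It was 400 ± 39.8 CPM in cDC1-like cells, 101 ± 38.2 in T-like cells and 48.7 ± 14.4 in B-like cells. The largest B-like sub-cluster had 20.1 CPM, no more than the 24.9 CPM of the general capillary sub-cluster of endothelial-like cells. The highest sub-cluster, of 233 monocyte-like cells, stood at 6126.2 CPM, where macrophage-like sub-clusters reached at most 4373.7 CPM. An unnamed sub-cluster of 256 cells, of which asthma monkey 11 gave 239, had 5926.7 CPM.

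The genes most like FCER1G over the 98 sums were TYROBP (0.903), which encodes the related adaptor DAP12, DOK2 (0.806) and SNX10 (0.804). Of the 14 classes in which FCER1G was tested, none gave a call, where 4.1% of genes were called in endothelial-like, 0.0466% in mesothelial-like, 0.0356% in pDC-like and 0.0148% in B-like cells and 0% in the other 10. In the macrophage-like class the log2 fold change was -0.11 (SE 0.17, edgeR adjusted p = 0.947) and in the monocyte-like class 0.04 (SE 0.16, edgeR adjusted p = 0.998). In T-like cells it was -0.88 (SE 0.26, edgeR adjusted p = 0.707, where 0% of genes were called). The T-like sub-clusters were not filled alike in the 2 groups. The one highest in FCER1G, at 482 CPM and led by cell cycle genes such as STMN1 and MKI67, had 21, 36 and 51 cells in the controls and 18, 10 and 4 in the asthma monkeys, while the largest, at 22.1 CPM, had 88, 111 and 93 against 573, 392 and 18. The part of this in the T-like value was not tested. In mesothelial-like cells it was -1.32 (SE 0.62, edgeR adjusted p = 0.964), and of the alternatives run it was called only without the filter (adjusted p = 0.000363, with 1.09% of genes called). The level there was 387, 102 and 39.8 CPM in controls 1, 2 and 3 and 80.7, 59.1 and 99.3 in asthma monkeys 8, 10 and 11, so the groups overlapped, and without control 1 the log2 fold change was 0.01. Of the 739 FCER1G UMIs of this class, 437 lay in a sub-cluster of 97 cells at 1449.3 CPM. Control 1 gave 87 of these 97 cells, and the macrophage markers were the second-best list of the sub-cluster. The 3 largest mesothelial-like sub-clusters stood at 12.4 to 14.4 CPM.

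In endothelial-like cells FCER1G had a log2 fold change of 2.66 (SE 0.73, edgeR adjusted p = 0.0742), beside 4.1% of genes called. DESeq2 called it (DESeq2 adjusted p = 0.00476, with 5.55% of genes called), and edgeR did without the filter on low counts (adjusted p = 0.0055) and without asthma monkey 8 (adjusted p = 0.00828, with 3.92% of genes called). The value was -0.22 once cells marked as doublets were removed. In these cells FCER1G was concentrated in small sub-clusters, at 2150.8 CPM in 29 cells, 529 CPM in 27 cells and 319 CPM in 15 cells, against 24.9 CPM in the 296 cells of the general capillary sub-cluster. The sub-cluster of 29 cells had macrophage markers as its second-best list. It had 1, 0 and 0 cells in controls 1, 2 and 3 and 1, 11 and 16 in asthma monkeys 8, 10 and 11. The sub-clusters of 27 and 15 cells had NK markers second. The part of these sub-clusters in the fold change was not tested.

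FCER2, the CD23 gene, was almost absent from the libraries, with 19 UMIs in 17 kept cells. Of these UMIs, 12 were in B-like cells, the class in which CD23 is known from follicular B cells, and 10 of the 12 were in 1 of its sub-clusters, of 213 cells. The level in B-like cells was 2.9, 1.02 and 0.88 CPM in controls 1, 2 and 3 and 4.55, 3.03 and 7 in asthma monkeys 8, 10 and 11. The asthma values lay above the control values, as for 6.78% of the genes tested in B-like cells, among which FCER2 was too low to be, but the 6 values share 12 UMIs in all, so no ratio is given. FCER2 was found in 1.01% of B-like cells and in 0.0537% of macrophage-like cells.

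KIT outside mast-like cells was found mainly in endothelial-like and T-like cells. Endothelial-like cells held 17.2% of its UMIs, at 18.3, 0 and 1.25 CPM in controls 1, 2 and 3 and 41, 31.7 and 29.2 in asthma monkeys 8, 10 and 11. Every asthma library was above every control library, as for 22.2% of the genes tested in this class. The log2 fold change was 2.41 (SE 0.71, edgeR adjusted p = 0.0889), and it was called (adjusted p = 0.0243) without the filter on low counts and (adjusted p = 0.022) with doublets removed, settings in which 4.08% and 4.44% of genes were called, and also without control 1 (adjusted p = 0.0456), where 0.416% were. With 1 library left out, the log2 fold change ran from 1.5 to 4.77 (the latter without control 1), and the genes called in this class from 23 to 321.

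The endothelial subtypes were not the same in the 2 groups. Of the 129 KIT UMIs of endothelial-like cells, 113 lay in the general capillary sub-cluster, at 122 CPM, while venous-type and lymphatic-type cells had none. This sub-cluster had 4, 0 and 3 cells in the controls and 82, 75 and 132 in the asthma monkeys. Within it, KIT had 288 CPM in control 1 (6 UMIs) and 148 in control 3 (1 UMI), and 172, 143 and 77 CPM in asthma monkeys 8, 10 and 11. The groups overlapped there, and the control values rest on 7 cells.

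In T-like cells KIT was low, at 3.51, 5.07 and 4.3 CPM in the controls and 1.57, 1.34 and 1.54 in the asthma monkeys, with the groups apart in the opposite direction. Of the genes tested in T-like cells, 3.82% had every asthma library below every control library. The log2 fold change was -1.59 (SE 0.36, unadjusted p = 0.00168, edgeR adjusted p = 0.476). A single T-like sub-cluster of 498 cells, led by LTB, CCR6 and CD40LG, held 57 of the 82 KIT UMIs of this class, at 26.8 CPM, and it had 112, 65 and 67 cells in the controls and 104, 130 and 20 in the asthma monkeys. The markers of innate lymphoid cells were the second-best list of this sub-cluster, with a score of 1.1 against 2.03 for T cells.

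Other classes carried KIT at low levels. A sub-cluster of AT2-like cells (alveolar type 2 cells, which make surfactant) that was led by the secretoglobin gene SCGB3A2 had 24.8 CPM, against 1.17 CPM in the largest AT2-like sub-cluster, and of the 2 sub-clusters of airway epithelial-like cells led by the basal keratin genes KRT15 and KRT5, the one of 57 cells had 22.2 CPM and the one of 113 cells 3.65 CPM. Neutrophil-like cells had 9.55 ± 2.09 CPM, from 16 UMIs in 1647 shallow cells. KIT had no UMI in B-like, cDC1-like, AT1-like or mural-like cells.

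**Figure D5:**
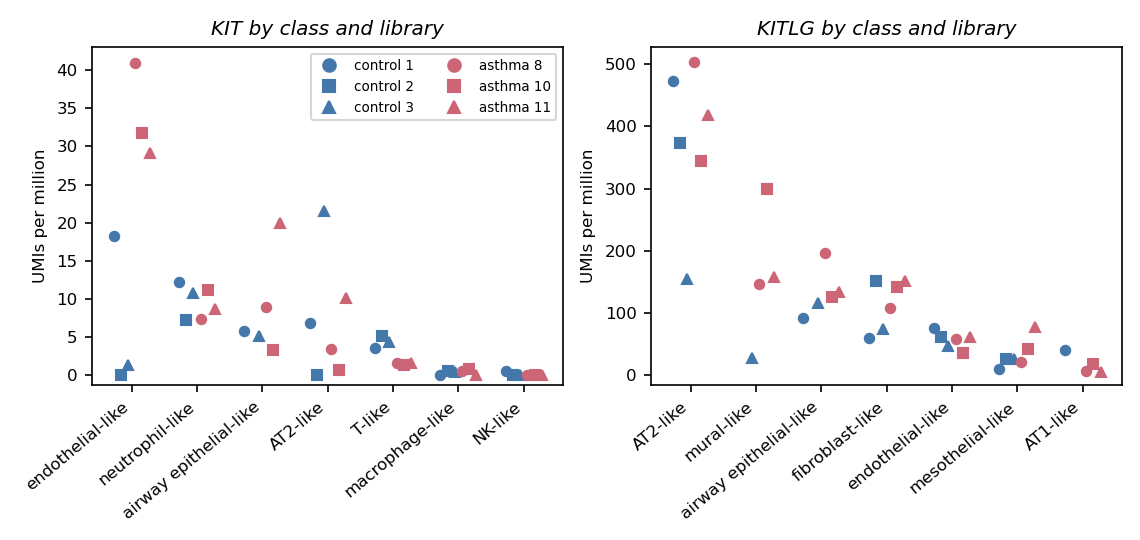
Level of KIT (left) and KITLG (right) in 7 cell classes each, in CPM, with mast-like cells left out. Each point is a library with at least 10 cells of the class (controls blue, asthma monkeys red). Endothelial-like KIT lay between 29.2 and 41 in the asthma monkeys and at 18.3 or below in the controls, and AT2-like KITLG lay between 154 and 503.

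KITLG was made by structural cells and hardly at all by immune cells. AT2-like cells held 58.3% of its UMIs and fibroblast-like cells 18.1%. In AT2-like cells it had 474, 374 and 154 CPM in controls 1, 2 and 3 and 503, 345 and 418 in asthma monkeys 8, 10 and 11, so the groups overlapped. The mean was 378 ± 125 CPM in AT2-like, 158 ± 111 in mural-like (n = 4 libraries), 133 ± 39.2 in airway epithelial-like (n = 5), 114 ± 40.5 in fibroblast-like and 56.3 ± 13.9 in endothelial-like cells. AT2-like and fibroblast-like values did not overlap in any library, while mural-like, airway epithelial-like and fibroblast-like values did.

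KITLG was detected in 81.6% of AT2-like cells and 33.6% of fibroblast-like cells, or in 47.9% and 19.7% when thinned to 2000 UMIs per cell. Within the AT2-like class, its level was 478, 570 and 471 CPM in the 3 largest sub-clusters and 106 CPM in the SCGB3A2-led sub-cluster, the one with the highest KIT level of the class. Within the fibroblast-like class, a sub-cluster of 51 cells led by MFAP4, ITGA8 and ASIP stood highest, at 658 CPM, and all its cells came from asthma libraries. Among mural-like cells, the 3 sub-clusters with COX4I2, POSTN and NOTCH3 among their leading genes had 269 CPM (92 cells), 165 CPM (68 cells) and 36.5 CPM (10 cells).

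No change of KITLG was called in the 5 classes where it was tested, among which 4.1% of genes were called in endothelial-like and 0.0466% in mesothelial-like cells and 0% in the other 3. The log2 fold change was 0.31 (SE 0.37) in AT2-like, 0.30 (SE 0.35) in fibroblast-like, 0.53 (SE 0.33) in airway epithelial-like, 0.84 (SE 0.49) in mesothelial-like and -0.42 (SE 0.28) in endothelial-like cells. Leaving out 1 library moved it between -0.04 (without control 3) and 0.73 (without control 1) in AT2-like, between 0.04 (without control 1) and 0.88 (without control 2) in fibroblast-like, and between 0.5 (without control 1) and 1.3 (without asthma monkey 8) in mesothelial-like cells. It ran from 0.23 (without asthma monkey 8) to 0.74 (without control 3) in airway epithelial-like cells and from -0.6 (without control 3) to -0.21 (without asthma monkey 10) in endothelial-like cells. The genes most like KITLG over the 98 sums were TRIM2 (0.934), MTUS1 (0.899) and YAP1 (0.877), the last a growth regulator of the Hippo pathway. In all, 25 pairs of member and class were tested, 0 were called, and 4 had an unadjusted p under 0.05, namely KIT and FCER1G in endothelial-like and in T-like cells.

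Small numbers of mast cell transcripts lay outside the mast-like class. Outside mast-like cells and the CLC-led sub-cluster, 9 cells held at least 3 of MS4A2, CPA3, TPSD1, HDC and KIT, and 6 of these were macrophage-like, with a median of 19167.5 UMIs. The 6 held 199 of the 464 UMIs of these genes in the 9 cells. Another 2 cells, of unnamed sub-clusters, held 250 of them, with a median of 4679.5 UMIs per cell. Asthma monkeys 8 and 10 gave 1 each of these 2, and what they are was not tested. All 9 came from asthma monkeys, 6 from monkey 8 and 3 from monkey 10. In T-like, NK-like and B-like cells together, CPA3 had 0, 0.244 and 0.111 CPM in the controls and 0.89, 2.04 and 0.253 in the asthma monkeys. TPSD1 had 0, 0.488 and 0 against 0.382, 0.815 and 0, MS4A2 had 0.377, 2.44 and 0.332 against 1.91, 0.543 and 0.758, and HDC was at most 0.254. CPA3 was highest there in asthma monkeys 8 and 10, the libraries with the most mast-like cells, while MS4A2 was highest in control 2. These levels rest on few cells. MS4A2 had 20 UMIs in 8 cells of control 2 and 15 in 15 cells of asthma monkey 8. CPA3 had 15 UMIs in 8 cells of asthma monkey 10 and 7 in 7 cells of asthma monkey 8. The part of free RNA in these levels was not tested.

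Genes that work with the members were read from 8 lists. In the whole libraries 26 genes of Fc epsilon RI signalling, 12 of granules and secretion, 8 of eicosanoid enzymes, 9 of mast cell cytokines and chemokines, 14 of KIT signalling and mast cell transcription factors, 9 of CD23 partners and the class switch to IgE, 2 of histamine receptors and breakdown and 6 of inhibitory and alarmin receptors were tested. None was called by edgeR in either direction, beside 0.0839% of all genes. The median log2 fold changes of the lists, in this order, were -0.13, -0.25, 0.08, 0.05, 0.07, 0.05, 0.14 and 0.08, beside -0.02 over all genes tested. An unadjusted p under 0.05 was found for 12 of the 86 listed genes (14%), beside 12.9% of all genes tested. The log2 fold change was positive for 7 of the 12, GATA2 (1.99, SE 0.41), a transcription factor of mast cells and of endothelium, HPGDS (1.72), LIF (1.05), TAL1 (1.37), VEGFA (0.97), LTC4S (0.57) and IL13RA1 (0.47). It was negative for the other 5, the serine protease genes CTSG (-1.89, SE 0.48) and CMA1 (-1.11, SE 0.30), MILR1 (-0.60), PIK3CD (-0.39) and RUNX1 (-0.38). GATA2 had 19.5% of its UMIs in mast-like cells and 70.7% in endothelial-like cells.

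Several of these partners were abundant in mast-like cells, where the levels of LTC4S, SLC18A2 and SIGLEC6 are a description only, since these 3 genes are among the naming markers that chose the cells. The proteoglycan gene SRGN, whose product packs proteases into granules, stood at 5779.7 CPM, the granule membrane gene CD63 at 3782.0 and LTC4S at 2403.4. The adaptor gene LAT2 stood at 709 CPM, SLC18A2 at 610, SIGLEC6, an inhibitory lectin gene, at 519, ALOX5, the 5-lipoxygenase gene, at 517, BTK, a signalling kinase gene, at 436 and PTGS1, a prostaglandin synthase gene, at 425. SLC18A2 had 60.8% of its UMIs in mast-like cells, while CD63 and ALOX5 had 75.1% and 92.1% of theirs in macrophage-like cells. HRH4, a histamine receptor gene, had 6 UMIs in 6 mast-like cells, 4 of asthma monkey 8 and 2 of asthma monkey 10.

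Within mast-like cells, 0 of the listed genes tested was called, and the number tested was 7, 7, 6, 1, 5, 1, 0 and 1 in the same order. CMA1, the chymase gene and itself a naming marker, had 218, 745 and 10390.6 CPM in controls 1, 2 and 3 and 339, 29.1 and 0 in asthma monkeys 8, 10 and 11. Control 3 was far above the rest, with 137 UMIs over 2 of its 3 mast-like cells, and the log2 fold change was -4.65 (SE 1.41, edgeR adjusted p = 0.907). CMA1 was also high in the CLC-led sub-cluster, at 2927.5 CPM, and 49% of its UMIs lay in NK-like cells. Of the 28 listed genes tested, 3 had an unadjusted p under 0.05 (10.7%, beside 4.62% of the 1148 genes), namely CMA1, LMO2, a transcription regulator gene (-1.97, SE 0.51), and PTPN6, the gene of an inhibitory phosphatase (1.24, SE 0.46), all with an edgeR adjusted p of 0.907. Among the others, LAT2 had -0.69 (SE 0.33), BTK 0.47 (SE 0.36), LTC4S -0.11 (SE 0.42) and GATA2 -0.21 (SE 0.35). Of the genes tested, CMA1, LTC4S, GATA2, HPGDS, SLC18A2 and SIGLEC6 are among the naming markers that chose these cells.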

How the data were processed

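Cell Ranger (the sources differ in its version) was used by the authors for alignment to macFas6, and the deposited values are raw UMI counts of each gene in each called barcode. A barcode was kept if its gene number lay over 500 and under 5000, its UMIs numbered 500 or more and its mitochondrial share was no higher than 25%. Log-normalized counts of 2000 variable genes, without the 9 members, were reduced to 10 principal components and clustered over 20 neighbours by the Leiden method (resolution 0.8, then 0.5 for sub-clusters) with scanpy 1.11.5 and leidenalg 0.10.2 in Python 3.11.15. Classes were named from marker lists without the members. A rule on CD3 genes for T-like cells, a minimum of 3 naming markers per mast-like cell and the separation of the CLC-led sub-cluster were chosen after seeing the data. Doublets were scored with Scrublet. The highest-scoring cells of each library were marked, up to a set share of 0.8% for each 1000 kept cells, and were removed only in an alternative.

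Counts were summed per library, and per class where a library had at least 10 cells (3 for mast-like cells, also chosen after seeing the data, since no control library held 10). The edgeR 4.0.16 quasi-likelihood test (R 4.3.3, TMM, filterByExpr) was run over all genes of a fit, with Benjamini-Hochberg adjustment, and was tested on simulated data. DESeq2 1.42.0, other filters, quality limits and resolutions and each library left out were alternatives. Shares were compared by an exact permutation test (scipy 1.17.1). The libraries held 29014556 to 41489879 UMIs over all barcodes and 24593874 to 34526867 in kept cells. Intervals and floors of 3 counts cover counting error only. Each library is 1 monkey, and the labels name no batch.

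The genes named besides the members were up to 4 per list with the highest mean level in mast-like cells, the 3 most like each member over the sums (Pearson, genes with at least 100 UMIs), and leading markers; others were singled out after their values were seen. The members and the lists were chosen with earlier results of these data known.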

Additional observations from a re-analysis of the deposited data

Results flagged for a closer look

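Barcodes outside the quality limits, 10898 in all, entered no main comparison. They entered only alternatives, all of them in the fit over all barcodes and a part in that with at least 200 genes per cell. In these barcodes, 4 members had a mean level over the asthma libraries above the highest control library. FCER1A had a mean of 6.78 CPM over the asthma libraries and at most 3.48 in a control, MS4A2 had 4.69 against 3.98, CPA3 18.4 against 3.15 and TPSD1 8.42 against 0.829. The MS4A2 mean rests largely on asthma monkey 8, with 8.54 CPM there and 4.7 in asthma monkey 10. No other member had such a mean, and KIT had 2.54, 2.95 and 3.31 CPM in asthma monkeys 8, 10 and 11 against 5.97, 2.09 and 7.31 in controls 1, 2 and 3. CPA3 had 35.9, 18.9 and 0.552 CPM in asthma monkeys 8, 10 and 11, the same order of libraries as in the kept cells. FCER1A stood at 5.79 CPM in asthma monkey 11, above each control, while MS4A2, CPA3 and TPSD1 were at 0.827, 0.552 and 0 there. The barcodes left out held 7.74% of all CPA3 UMIs and 4.67% of those of TPSD1. What these barcodes are was not tested. No group had more than 3 libraries, so no single library was examined as an outlier.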

How the results depend on the processing

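Of 348 alternatives for 28 values of single members, 317 kept the direction and the side of the threshold, 8 newly passed it and 23 changed sign. In whole libraries DESeq2 called 1 member and 647 genes in place of 12; 45 genes were called without a filter on low counts, 7 with at least 200 genes per cell and 6 over all barcodes. Among class pairs, 1 was called with DESeq2, 1 with doublets removed and 3 without the filter (KIT and FCER1G in endothelial-like and FCER1G in mesothelial-like cells). Of 86 listed genes, 5 were called in whole libraries with DESeq2 (GATA2, TAL1, VEGFA, CMA1 and CTSG), beside 4.52% of all genes, and without the filter 1 listed gene (CMA1) and 4 genes in all were called in mast-like cells. Without the filter the median log2 fold change of all 10480 genes in mast-like cells was 1.21, against 0.05 with it, so that signs there say nothing of single members. In mast-like cells, FCER1A was 0.46 without the filter and 0.16 over all cells of the sub-clusters, FCER1G 0.18 without the filter, and MS4A2 -0.2 with the CLC-led sub-cluster, -0.24 with libraries of at least 2 cells and -0.01 over all cells of the sub-clusters. CPA3 was -0.04 and HDC -0.23 with libraries of at least 2 cells. Endothelial-like FCER1G was -0.22 with doublets removed. The causes were not tested.

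Leaving out 1 library gave a difference in share of 0.127 to 0.78, 0 to 11 genes called in whole libraries (0 without control 1 or asthma monkey 10), 0 to 1 class pairs, and 0 to 3 genes and 0 to 1 listed genes in mast-like cells. The pairs were endothelial-like KIT without control 1 (4.77, when 0.416% of genes were called) and FCER1G without asthma monkey 8 (3.15, 3.92%), and the listed gene was CMA1 without asthma monkey 8 or 10. Each such fit of mast-like cells leaves 1 library in a group, which is assumed to vary like the pair left in the other, so that these CMA1 calls compare 1 asthma monkey with 2 controls. The log2 fold changes that changed sign ranged from -0.05 to 0.51 (FCER1A) and -0.23 to 0.02 (FCER1G) in whole libraries. In mast-like cells they ranged from -0.1 to 0.36 (FCER1A), -0.02 to 0.74 (MS4A2), -0.51 to 0.22 (FCER1G), -0.04 to 0.88 (CPA3), -0.43 to 0.48 (TPSD1) and -0.35 to 1.23 (HDC). KITLG in AT2-like cells ranged from -0.04 to 0.73 and FCER1G in mesothelial-like cells from -1.8 to 0.01. The fit of mast-like cells could not be run with at most 10% mitochondrial UMIs, since 1 control library was left. No paired analysis was possible because the groups share no replicate numbers. The mast-like comparison set 2 monkeys against 2, with 10 mast-like cells in the 2 control libraries together. The median UMIs per cell were 4216.0 and 5550.0 in controls 2 and 3 and 4013.5 and 6416.0 in asthma monkeys 8 and 10. The sums that entered the fit held 36225 and 13185 UMIs in these controls and 312531 and 137259 in these asthma monkeys. Which of these limits the comparison most was not tested.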
